A study of Mus musculus with 6 samples.

Results

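Sidt1 and Sidt2 are the pair of mouse genes that encode SID1-type transmembrane proteins. Both were described in CD4+CD62L- T cells whose Dicer gene was deleted or intact. Each gene had 1 row on the array that the platform annotation assigns to it alone, so the pair makes up 2 of the 19935 genes measured. The pair was selected on the measured difference between Dicer KO and Dicer WT. Sidt1 was chosen by its much lower value in Dicer KO cells. Sidt2, its relative, was named together with it from results of the same comparison. The values of both in that comparison are therefore given as a description with no test.

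Total RNA was taken from lymph node cells sorted by flow cytometry, which the labels call resting, and was hybridised after amplification to 1-colour MoGene 1.0 ST arrays. The 3 Dicer KO samples came from CD4Cre-positive Dicer lox/lox animals, in which Cre under the Cd4 promoter acts in T-lineage cells, and the 3 Dicer WT samples from CD4Cre-negative Dicer lox/lox animals. Both genotypes thus carried the floxed Dicer alleles, neither received a treatment, and the design text calls the samples biological replicates. The comparison asks which transcripts differ when T cells lack Dicer, the RNase that cuts microRNA precursors and long double-stranded RNA.

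The family is named after SID-1 of Caenorhabditis elegans, a membrane protein that lets double-stranded RNA enter cells so that RNA interference spreads through the worm. Mammalian SIDT1 and SIDT2 have a large extracellular or luminal domain followed by many membrane-spanning segments. SIDT2 sits mainly in the lysosome membrane, where it has been tied to uptake of RNA for breakdown and to release of internalised double-stranded RNA towards cytosolic sensors. SIDT1 has been tied to RNA uptake as well, and both proteins can bind cholesterol. By sequence the family belongs to the CREST superfamily, together with alkaline ceramidases and the progestin and adipoQ receptors.

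The DNA just before the start sites is shown because both genes were lower in Dicer KO, by unequal amounts. They are the 250 bases before each gene's RefSeq start in build GRCm38.p6, at chr16:44332839-44333088 for Sidt1 and chr9:45955250-45955499 for Sidt2. Both are written 5′ to 3′ on the minus strand, which carries the genes, and capitals mark CpG dinucleotides.
Sidt1: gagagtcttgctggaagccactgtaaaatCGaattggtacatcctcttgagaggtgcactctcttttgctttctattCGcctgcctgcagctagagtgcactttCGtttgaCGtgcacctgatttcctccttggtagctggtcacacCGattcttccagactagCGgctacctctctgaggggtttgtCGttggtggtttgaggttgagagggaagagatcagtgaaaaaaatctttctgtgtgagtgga
Sidt2: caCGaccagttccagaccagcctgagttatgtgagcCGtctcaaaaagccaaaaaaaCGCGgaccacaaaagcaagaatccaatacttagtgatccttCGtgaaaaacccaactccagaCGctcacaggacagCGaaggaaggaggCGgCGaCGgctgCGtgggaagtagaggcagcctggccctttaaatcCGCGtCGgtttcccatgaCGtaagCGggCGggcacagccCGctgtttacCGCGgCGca
The Sidt1 stretch held 7 CpG dinucleotides and 48.4% G and C. The Sidt2 stretch held 21 CpG dinucleotides and 56.4% G and C, with a median over 32841 such stretches in the RefSeq table of 6 CpG and 52.4% G and C. At least 21 CpG were found in 16.4% of those stretches and at least 7 in 46.3%. Both strands were searched for 5 motifs. The ETS core GGAAG occurred 3 times before Sidt1 and 2 times before Sidt2, and 64.1% of all stretches held it. The RUNX motif TGTGGT occurred 1 time before Sidt2 and 0 times before Sidt1 (14.0% of stretches). The interferon-stimulated response element (3.0%), the E-box CACGTG (6.0%) and the KLF motif CACCC (52.0%) were in neither stretch. A match is a run of letters and not a measured binding site.

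The deposited values are log values, read as log2, and each row had its own median over the 6 arrays subtracted. A value therefore says how far an array lies above or below the middle array of that gene, and levels of different genes cannot be set side by side. A coarse class of level could still be read from the binary step of the stored numbers. The step put 17.8% of all array rows at a log value of 8 or more, among them 90.3% of 216 ribosomal protein rows and 3.0% of 1035 olfactory receptor rows. The class of a single row can be wrong. Sidt1 and Sidt2 were both in the higher class. So did all 9 measured T cell markers, Cd4 and Cd3e included, against 1 of 11 B cell markers (Blk), 1 of 11 myeloid markers (Cst3) and 7 of 7 naive T cell markers. Of 8 memory T cell markers, 2 were in the higher class (Itgb1 and Id2), and Cd44 was not.

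Sidt1 was lower in Dicer KO cells on every array. The Dicer KO arrays read -0.57, -0.58 and -0.63 for Sidt1, against 0.91, 0.90 and 0.57 on the Dicer WT arrays. The 3 Dicer KO values were nearly the same, while Dicer WT 3 lay below the other Dicer WT arrays. Even so, the lowest Dicer WT array stood 1.14 above the highest Dicer KO array. The mean was -0.59 ± 0.04 in Dicer KO and 0.79 ± 0.19 in Dicer WT (SD, n = 3 each). The difference, taken as Dicer KO minus Dicer WT, was -1.39 ± 0.10 (SE) on the log2 scale, which puts Sidt1 RNA in Dicer KO at 0.383 times its Dicer WT level, or 2.61-fold higher in Dicer WT. In a bulk sample, fewer cells that express a gene and less RNA per cell cannot be told apart.

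Sidt2 was also lower in Dicer KO cells, by a smaller margin. The Dicer KO arrays read -0.21, -0.14 and -0.09 for Sidt2, against 0.13, 0.17 and 0.09 on the Dicer WT arrays. The genotypes did not overlap, with a gap of 0.19 between the highest Dicer KO and the lowest Dicer WT array. Means were -0.15 ± 0.06 in Dicer KO and 0.13 ± 0.04 in Dicer WT (SD, n = 3 each), and the log2 difference was -0.28 ± 0.05 (SE). Sidt2 RNA in Dicer KO was thus 0.823 times its Dicer WT level, or 1.22-fold higher in Dicer WT.

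**Figure D1:**
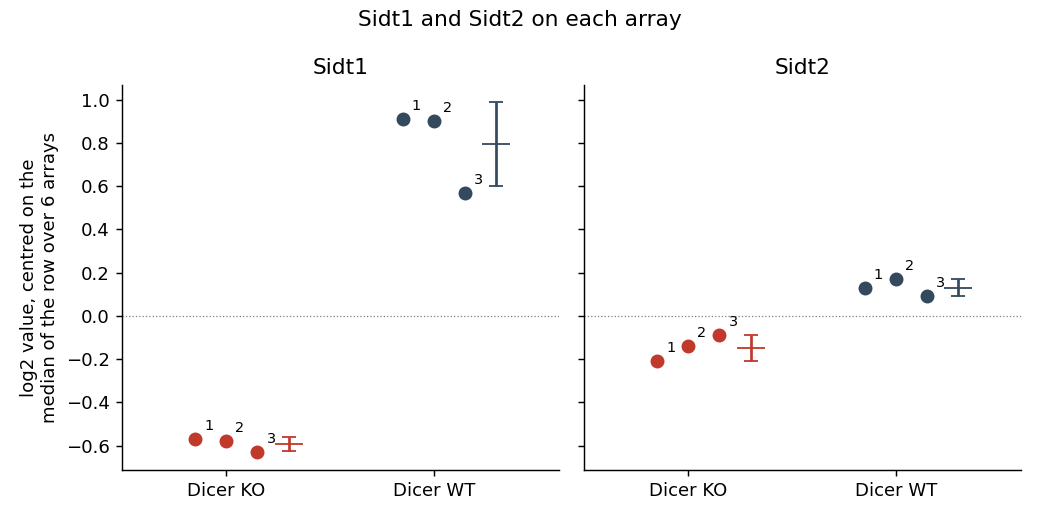
The log2 value of Sidt1 (left) and Sidt2 (right) on each array, centred on the median of the row, with Dicer KO in red and Dicer WT in dark blue, the replicate number beside each point, and the mean with its SD as a bar. The 3 Dicer KO arrays lie below the 3 Dicer WT arrays for both genes, with a gap of 1.14 for Sidt1 and 0.19 for Sidt2.

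Among the 19935 genes, Sidt1 had the third lowest difference. Its place from the lowest was 6 without Dicer KO 2, 5 without Dicer WT 2 and 2 without Dicer KO 3 or without Dicer WT 3. With all 6 arrays, only Usp17ld (-2.45 ± 0.53) and the transcript AY036118 (-1.49 ± 0.45) were lower, both with a larger SE than Sidt1. A difference of -1 or lower was reached by 12 genes, and the median over all genes was -0.011. The 3 arrays of Dicer KO lay below the 3 of Dicer WT for 12.7% of genes, and in either direction the arrays did not overlap for 26.2%. Sidt2 had a place of 659 from the lowest among the 2530 genes whose Dicer KO arrays were lower, whose median difference was -0.19. Of all genes, 3.88% had a difference as low as that of Sidt2 or lower. The pooled SD within genotypes was 0.139 for Sidt1 and 0.051 for Sidt2, beside a median of 0.085 over all genes.

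**Figure D2:**
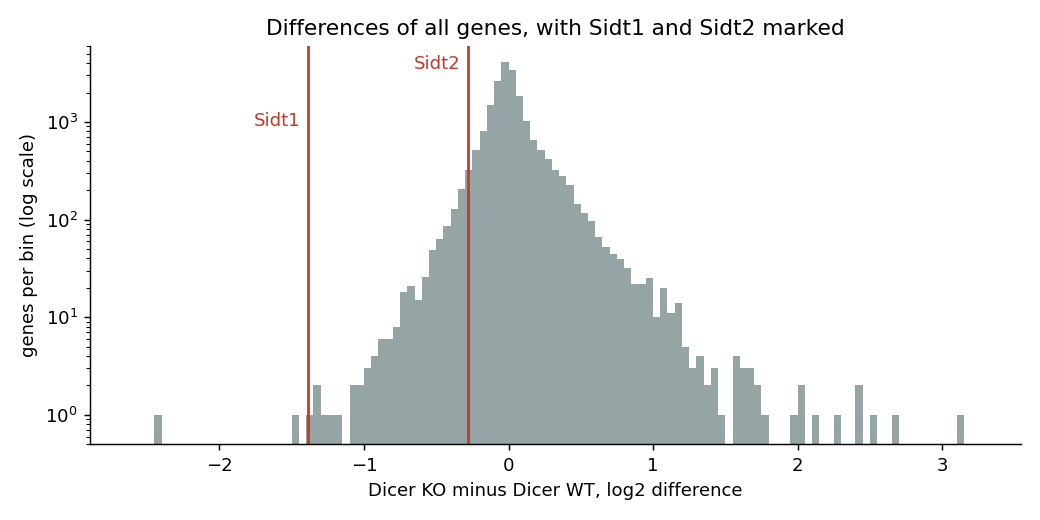
Counts of genes (log scale) by their difference (Dicer KO minus Dicer WT, log2), for all 19935 genes, with red lines at Sidt1 and Sidt2. Sidt1 at -1.39 lies in the far lower tail, and Sidt2 at -0.28 lies at the lower edge of the main body.

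Dicer WT 3, the low array for Sidt1 among its genotype, also stood apart over the whole table. On the second principal component (21.2% of the variance), Dicer KO 3 lay at -10.5 and Dicer WT 3 at -14.1, with the other arrays between -1.9 and 10.2. Without Dicer WT 3 the Sidt1 difference was -1.50 ± 0.05 (SE), and without both Dicer KO 3 and Dicer WT 3 it was -1.48 ± 0.06. Those settings gave -0.30 ± 0.06 and -0.33 ± 0.06 for Sidt2. Leaving out any 1 array kept the difference between -1.50 and -1.33 for Sidt1 and between -0.31 and -0.25 for Sidt2.

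**Figure D3:**
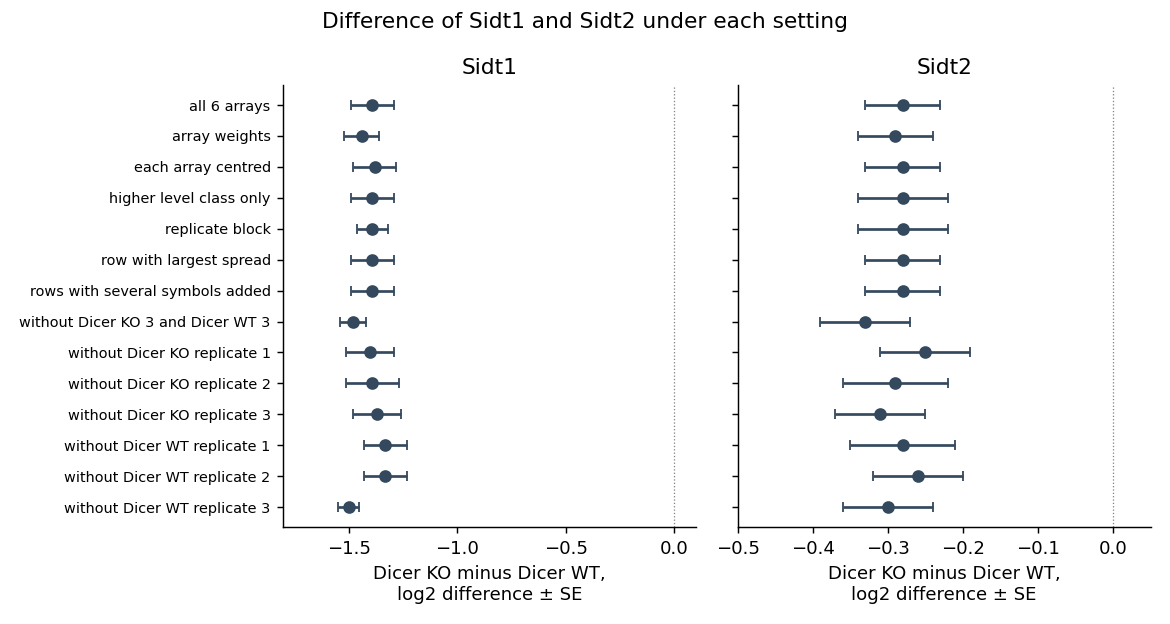
The difference (Dicer KO minus Dicer WT, log2) with its SE for Sidt1 (left) and Sidt2 (right), with all 6 arrays and under each alternative setting; the axes differ in range. Sidt1 ran from -1.50 to -1.33 and Sidt2 from -0.33 to -0.25, all below 0.

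Markers of T cells and of other lymph node cells were set beside the pair, and these genes were tested with limma at an adjusted p under 0.05. Over all genes 8.73% passed, 5.94% higher and 2.79% lower in Dicer KO. Of the 3509 genes with a row in the higher level class, 19.5% were higher and 4.27% lower. B cell markers had a median of 0.16, 0.05 and 0.08 on Dicer KO 1 to 3 and of -0.45, 0.02 and -0.22 on Dicer WT 1 to 3, so this median was higher in Dicer KO, opposite to Sidt1. Of 11 measured members all 11 differences were positive and Bank1 alone passed (0.71 ± 0.11 SE, limma adjusted p = 0.00975). At an unadjusted p under 0.05 in limma's test, 8 were higher and 0 lower. Beside these B cell medians, Sidt1 read 0.91, 0.90 and 0.57 on Dicer WT 1 to 3. Naive T cell markers had medians of 0.24, 0.26 and 0.05 on the Dicer KO arrays and -0.05, -0.08 and -0.38 on the Dicer WT arrays. Of the 7 measured, Ccr7 and Igfbp4 rose, and Dicer WT 3 was the lowest array for this median and the lowest Dicer WT array for Sidt1. T cell markers had medians of 0.21, 0.14 and 0.01 on the Dicer KO arrays and -0.03, -0.01 and -0.17 on the Dicer WT arrays. Of these 9 markers, Cd4, Cd2 and Thy1 rose. The Cd4 difference was 0.67 (SE 0.07, limma adjusted p = 0.00328), and Cd3e did not pass (0.13 ± 0.07, limma adjusted p = 0.329). Nor did Cd44 (0.28 ± 0.14, limma adjusted p = 0.304). Medians stayed between -0.04 and 0.05 on all arrays for the 11 myeloid markers, of which Lyz2 alone passed (0.69 ± 0.12, limma adjusted p = 0.0165). Among memory T cell markers 1 of 8 fell (Id2, -0.82 ± 0.15, limma adjusted p = 0.019). Of 5 plasmacytoid dendritic cell markers Ccr9 alone passed (1.18 ± 0.20, limma adjusted p = 0.015). Siglech (-0.13 ± 0.07) differed in the other direction and, with Tcf4 (0.12 ± 0.06), Irf8 (0.40 ± 0.13) and Cox6a2 (0.08 ± 0.07), did not pass. In limma's test 0 of 5 plasma cell and 0 of 7 CD8 and NK cell markers passed. In these 2 lists an unadjusted p under 0.05 was reached by 1 (Xbp1) and 2 (Cd8b1 and Klrd1). With 1 array left out, Bank1 lost its call without Dicer KO 2 (0.0515), Ccr9 without Dicer WT 1 (0.0611), Lyz2 without Dicer KO 2 or Dicer WT 1 (0.0654 to 0.0699), Id2 without Dicer KO 2, Dicer WT 1 or Dicer WT 2 (0.0548 to 0.0786) and Thy1 without Dicer KO 1, Dicer KO 2, Dicer WT 1 or Dicer WT 2 (0.089 to 0.126). The part of any of these cells in the Sidt1 and Sidt2 values was not tested.

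The genes with the pattern most like that of Sidt1 were found by the root mean square distance of the 6 array values. The nearest was the Golgi mannosidase gene Man2a2, at a distance of 0.15 with Pearson's r of 0.993 over the 6 arrays. Man2a2 read -0.67, -0.46 and -0.55 in Dicer KO and 0.67, 0.71 and 0.46 in Dicer WT, with Dicer WT 3 again the lowest of its genotype. Next came Crip1, which encodes a LIM domain protein (distance 0.26, r 0.932), and the ribosomal protein gene Rpl36a (0.27, r 0.949). Adk, the adenosine kinase gene, had the shape closest to Sidt1 among the 5 (r 0.997) at a smaller size, with a difference of -0.87 ± 0.06. The fifth was Rps19 (distance 0.28, r 0.948). All 6 points of each r share the split between genotypes, and 201 of 18353 named genes had an r of 0.95 or more with Sidt1.

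For Sidt2 the nearest genes were at smaller distances, a measure that shrinks with the size of the differences compared. Robo1, an axon guidance receptor gene, was at a distance of 0.019 and read -0.20, -0.14 and -0.10 in Dicer KO and 0.10, 0.16 and 0.13 in Dicer WT. Bccip, Fam124b, Tmem134 and the RNA polymerase III subunit gene Polr3c followed at 0.022 to 0.033, with r of 0.982 to 0.992. An r of 0.95 or more with Sidt2 was reached by 191 genes.

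The genes beside Sidt1 on chromosome 16 differed in the sign and size of their values. Adjacent on the lower-coordinate side, the transcription factor gene Usf3 differed by -0.08 ± 0.12 (SE, limma adjusted p = 0.802). Adjacent on the other side, the centriole gene Spice1 read -0.02, -0.18 and -0.33 in Dicer KO and 0.36, 0.17 and 0.02 in Dicer WT. Its arrays did not overlap, but its difference of -0.36 ± 0.11 missed the threshold (limma adjusted p = 0.0902). The acetyltransferase gene Naa50 (0.36 ± 0.11), the cilium gene Cfap44 (-0.08 ± 0.05) and the hedgehog co-receptor gene Boc (0.05 ± 0.06) did not pass either.

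Further out around Sidt1, genes passed in both directions. The palmitoyltransferase gene Zdhhc23 fell in Dicer KO by 0.73 on the log2 scale (SE 0.07, limma adjusted p = 0.00192), with -0.37, -0.37 and -0.29 in Dicer KO and 0.52, 0.35 and 0.29 in Dicer WT. Gtpbp8, a GTP-binding protein gene, changed by -0.39 ± 0.08 (limma adjusted p = 0.026), a call lost without Dicer KO 2 or any 1 Dicer WT array (0.059 to 0.0764). Higher in Dicer KO were the CD200 receptor gene Cd200r1 (0.67 ± 0.09, limma adjusted p = 0.00509), the proton pump subunit gene Atp6v1a (0.44 ± 0.08, 0.0158) and the sterol transfer gene Gramd1c (0.29 ± 0.05, 0.0169). Atp6v1a lost its call without Dicer KO 2 or Dicer WT 2 (0.0607 to 0.0721), and Gramd1c without Dicer KO 2 or Dicer WT 1 (0.0703 to 0.0778).

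Around Sidt2 on chromosome 9, 1 of 12 neighbours passed. Pafah1b2, a subunit gene of platelet-activating factor acetylhydrolase and adjacent to Sidt2, rose in Dicer KO (0.56 ± 0.09 SE, limma adjusted p = 0.0129), the direction opposite to Sidt2. Its arrays read 0.14, 0.42 and 0.46 in Dicer KO and -0.28, -0.14 and -0.27 in Dicer WT, and the call was lost without Dicer KO 2 or Dicer WT 1 (0.0592 to 0.0625). On the other side the smooth muscle gene Tagln (-0.15 ± 0.09), the convertase gene Pcsk7 (-0.05 ± 0.07) and Rnf214 (0.03 ± 0.08) did not pass, nor did the kinase gene Sik3 (0.13 ± 0.10) and Apoa1 (0.03 ± 0.09). Over both sites 4 of 24 neighbours rose and 2 fell, beside the 5.94% and 2.79% of all genes. The 6 calls became 2 without Dicer KO 2, 3 without Dicer WT 1 and 3 without both Dicer KO 3 and Dicer WT 3.

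**Figure D4:**
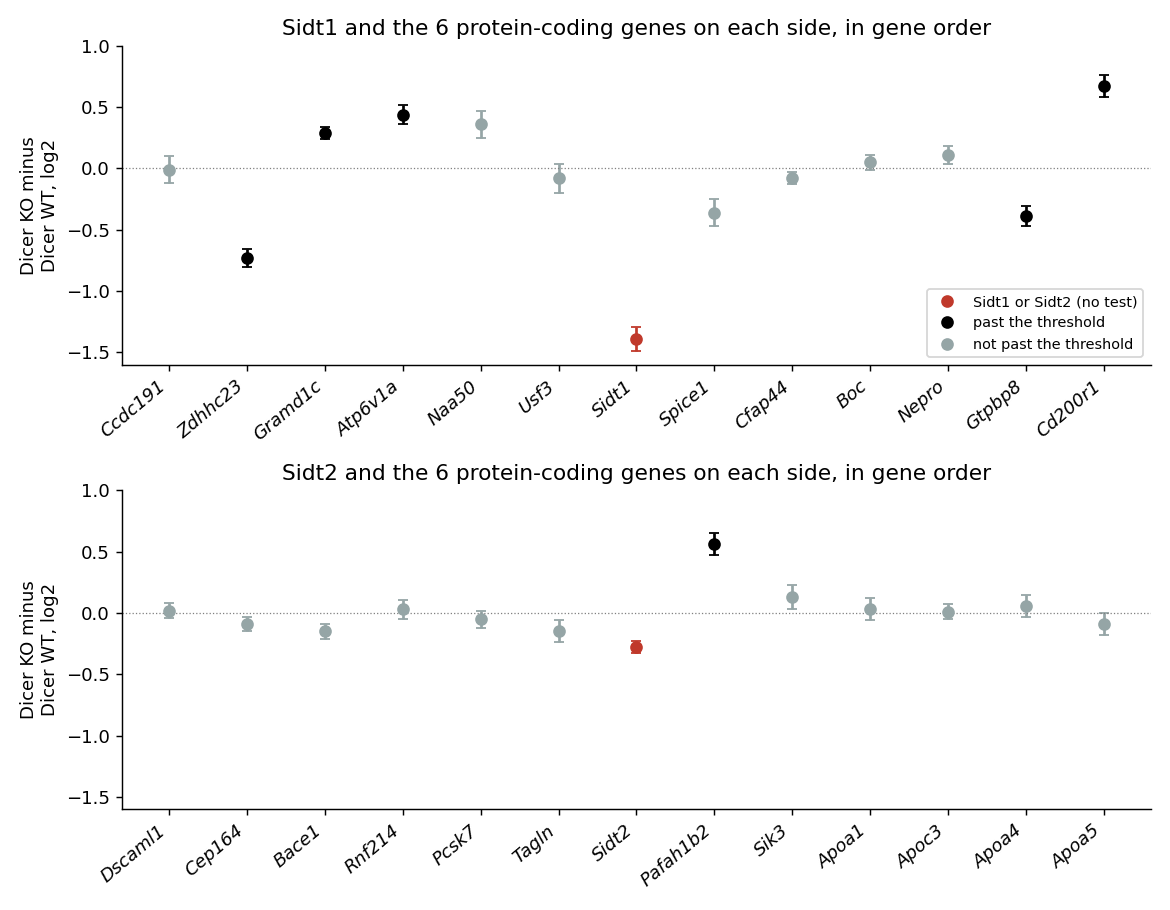
The difference (Dicer KO minus Dicer WT, log2) with its SE for Sidt1 (top) and Sidt2 (bottom) in red and the 6 protein-coding genes on each side in gene order, black where the limma test passed and grey where it did not. Sidt1 at -1.39 and Zdhhc23 at -0.73 are the lowest of the upper panel, while Pafah1b2 next to Sidt2 is higher in Dicer KO.

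The rest of the CREST superfamily was centred close to 0. Of 18 measured, 1 rose and 0 fell in limma's test, close to the 5.94% of all genes that rose, and the median difference was -0.03. At an unadjusted p under 0.05, 2 were higher (Mmd and Adipor1) and 2 lower (Tmem8b and Acer3). The member that passed was Mmd, a gene of the progestin and adipoQ receptor family that read 0.28, 0.48 and 0.29 in Dicer KO and -0.44, -0.28 and -0.29 in Dicer WT (0.68 ± 0.08 SE, limma adjusted p = 0.00333). The lowest difference on the list was -0.19. Only 2 of the 18 were in the higher level class (Adipor1 and Mymk), and 0 of these rose. Signal over background is unknown for the others, so their differences near 0 may reflect low signal, which was not tested. With Dicer KO 1 left out, 2 members passed, beside 1321 of all genes.

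The small RNA pathway in which SID-1 was found in worms had 5 of 25 members higher in Dicer KO and 0 lower in limma's test (0 lower at an unadjusted p under 0.05), beside 5.94% of all genes higher. Of the 16 members in the higher level class 4 rose, a share near the 19.5% of the 3509 genes of that class. In a fit restricted to rows of that class, 9 of the 16 were called, beside 1068 of the 3509 genes, so this reading depends on the fit. The list median was 0.14. Dicer1 itself differed by 0.02 ± 0.09 (SE, limma adjusted p = 0.949), with 0.21, -0.02 and -0.09 in Dicer KO and 0.12, 0.02 and -0.10 in Dicer WT. The exons that its row covers are not named by the labels or files, so this row checks nothing about the deletion. The RNA helicase gene Mov10 (1.16 ± 0.05, limma adjusted p = 0.000273), the Argonaute gene Ago2 (0.88 ± 0.05, 0.000471) and the nuclear RNase gene Drosha (0.43 ± 0.06, 0.00646) rose. Tnrc6c, whose product binds Argonaute, rose by 0.31 ± 0.06 (0.0211) and the helicase gene Ddx6 by 0.47 ± 0.11 (0.043). Tnrc6c lost its call without Dicer KO 1, Dicer KO 2 or Dicer WT 1 (0.0648 to 0.084), in each of which 3 members passed, and Ddx6 without any 1 of the 6 arrays (0.0502 to 0.127). Without both Dicer KO 3 and Dicer WT 3, 8 members passed, beside 1670 of all genes.

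The list of foreign RNA sensing held sensors, which meet RNA in the cytosol or the endosome, with their adaptors, kinases and transcription factors. Of 31 measured members, 13 rose and 0 fell in limma's test, with 1 lower at an unadjusted p under 0.05 (Ticam1), and the list median was 0.42. Over all genes 5.94% rose and 2.79% fell. Of the 11 members in the higher level class, 6 rose, beside 19.5% of the genes of that class. Zbp1, a sensor of Z-form nucleic acid, rose by 1.43 ± 0.10 (SE, limma adjusted p = 0.000939). The cytosolic double-stranded RNA sensor gene Ddx58, which encodes RIG-I, read 0.42, 0.34 and 0.29 in Dicer KO and -0.32, -0.50 and -0.29 in Dicer WT (0.72 ± 0.07, limma adjusted p = 0.00227). Ifih1, which encodes MDA5, read 0.91, 0.50 and 0.42 in Dicer KO and -0.42, -0.82 and -0.67 in Dicer WT (1.24 ± 0.15, limma adjusted p = 0.0042). Oasl2 (2.43 ± 0.25, 0.00244), the helicase gene Ddx1 (0.53 ± 0.07, 0.00464) and Unc93b1 (0.81 ± 0.11, 0.00553), whose product carries Toll-like receptors to endosomes, rose as well. The adaptor genes Mavs (0.04 ± 0.06) and Ticam1 (-0.15 ± 0.05) and the endosomal sensor gene Tlr3 (0.08 ± 0.07), named after their values were seen, did not pass. The 13 calls became 7 without Dicer KO 2 and 7 without Dicer WT 1.

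Genes for lysosomal handling of nucleic acids, the setting of SIDT2, had 2 of 10 measured members higher and 0 lower in limma's test (0 lower at an unadjusted p under 0.05), with a median of 0.19, beside 5.94% of all genes higher and 2.79% lower. Of the 2 members in the higher level class (Lamp1 and Acp5) 0 rose, beside 19.5% of the genes of that class. The members that passed were outside that class. Lamp2, a lysosomal membrane protein gene with a splice form whose product binds RNA, read 0.44, 0.24 and 0.41 in Dicer KO and -0.24, -0.46 and -0.37 in Dicer WT (0.72 ± 0.08 SE, limma adjusted p = 0.00311). The files do not say which splice forms the row reads. The lysosomal nuclease gene Pld3 rose by 0.67 ± 0.14 (limma adjusted p = 0.0311), a call lost without Dicer KO 2, Dicer KO 3, Dicer WT 1 or Dicer WT 2 (0.0714 to 0.111), each of which left 1 member called. The RNase T2 genes Rnaset2a and Rnaset2b had no row of their own and were not analysed here.

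Genes of cholesterol handling, listed because SID1-type proteins bind cholesterol, had 8 of 14 measured members higher and 0 lower in limma's test (0 lower at an unadjusted p under 0.05), with a median of 0.29. Over all genes 5.94% were higher and 2.79% lower, and of the 9 members in the higher level class 7 rose, beside 19.5% of such genes. The cholesterol exporter gene Abca1 read 0.93, 0.54 and 0.66 in Dicer KO and -0.73, -0.55 and -0.54 in Dicer WT (1.31 ± 0.11 SE, limma adjusted p = 0.00126). The lysosomal membrane protein gene Scarb2 rose by 0.91 ± 0.09 (0.00199) and the lysosomal lipase gene Lipa by 0.84 ± 0.10 (0.00443). Osbpl9 (0.52 ± 0.08, 0.0104), Gramd1c (also a neighbour of Sidt1) and the exporter gene Abcg1 (0.60 ± 0.11, 0.0175) followed. Osbpl9 lost its call without Dicer KO 2 (0.0545) and Abcg1 without Dicer KO 2, Dicer KO 3, Dicer WT 1 or Dicer WT 2 (0.0519 to 0.0737). The 8 calls became 3 without Dicer KO 2, 4 without Dicer WT 1 and 5 without Dicer KO 3.

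**Figure D5:**
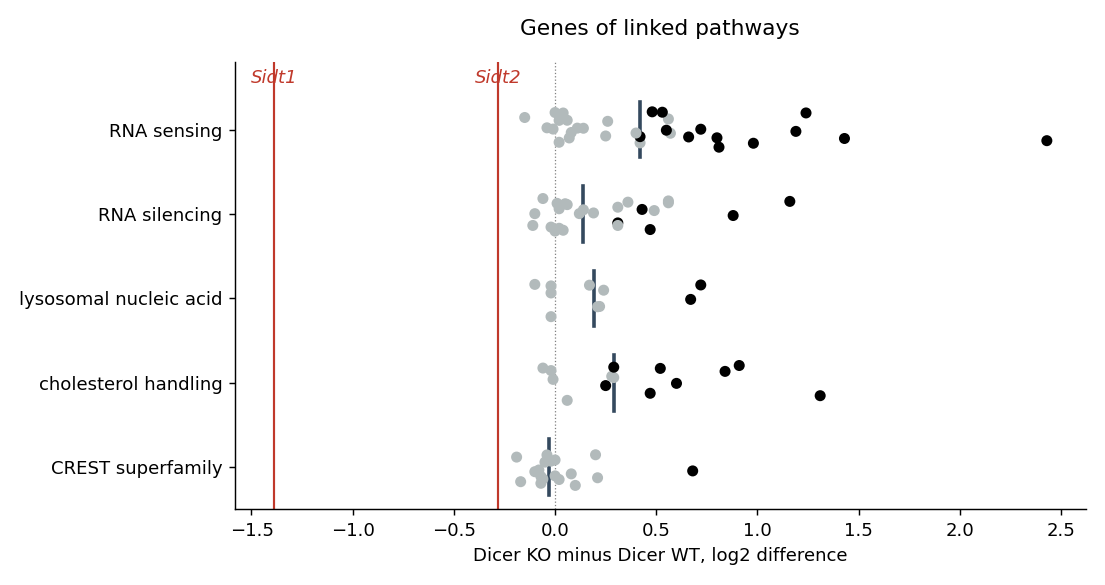
The difference (Dicer KO minus Dicer WT, log2) for every measured member of 5 gene lists, black where the limma test passed and grey where it did not, with a bar at each list's median and red lines at Sidt1 and Sidt2. No member of the 5 lists lies as low as Sidt2 at -0.28, and the called members lie above 0.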

How the data were processed

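The authors deposited 1 table of log2 values (the base is not stated and is read as 2) for 28815 array rows on 6 arrays. MAS5 is named, without a role or version, per the submitters' processing notes; normalization and genome build are not given in the sources used. The values ran from -2.59 to 3.00 with row medians at 0 (largest 5e-07), so no filter on mean level and no quantile normalization could be run, and the coarse level class served as the only level filter. Gene names came from GEO's platform annotation: 21780 had 1 symbol, 1605 several and 5430 none. By gene ID 21689 matched the RefSeq table (GRCm38.p6). Rows of a gene were averaged, 998 genes having several.

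Differences were fitted over all 19935 genes with limma 3.58.1 in R 4.3.3 (lmFit, eBayes, n = 3 per genotype), with Benjamini-Hochberg adjustment and a threshold of 0.05. The procedure was tested on simulated data. The members, lists and rules were chosen with earlier results of these data known. The rises of interferon-inducible and small RNA pathway genes were among those results and are no independent evidence.

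Sidt1, Sidt2, Dicer1 and the sort markers are named. So are all called members of a list (above 6, the 6 of lowest p), the 3 nearest neighbours on each side and the 5 genes of nearest pattern. Promoter sequences are RefSeq's. Arrays number 3 per genotype, which limits the precision. The closing section gives the alternatives.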

Additional observations from a re-analysis of the deposited data

How the results depend on the processing

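Sidt1 and Sidt2 kept the sign of their differences under all 13 alternatives run. Values were -1.50 to -1.33 for Sidt1 and -0.33 to -0.25 for Sidt2. Each lay within 1 SD of the value with all 6 arrays. Some alternatives could not move these values. Each gene had 1 row, in the higher level class, so other choices of rows and the restriction to that class refitted the same values. A replicate block leaves a balanced difference as it is. Leaving out 1 array at a time gave -1.50 to -1.33 and -0.31 to -0.25. The count of genes called, 1741 with all arrays, ran from 729 to 1597 in those fits, with 729 without Dicer KO 2, 849 without Dicer WT 1 and 1050 without Dicer WT 2. Called members ran from 7 to 14 for RNA sensing, 3 to 5 for RNA silencing, 1 to 3 for lysosomal nucleic acids, 1 to 2 for the CREST superfamily, 3 to 7 for cholesterol handling and 2 to 6 for neighbours. Restricting the table to rows of the higher level class tested 3509 genes and called 1068. It also left fewer members to test. Called were 6 of 11 for RNA sensing, 9 of 16 for RNA silencing and 1 of 2 for lysosomal nucleic acids. For the CREST superfamily 0 of 2 were called, and for neighbours 3 of 3. Array weights called 2537 of all genes, among them 8 RNA silencing and 2 CREST members. Without Dicer KO 3 and Dicer WT 3, an alternative chosen after seeing the data, 8 RNA silencing members and 3 neighbours were called, beside 1670 of all genes. With the replicate number as a block, the Sidt1 and Sidt2 differences were -1.39 and -0.28, the genes called 2063 and the RNA silencing members 9. Deviations of same-numbered arrays correlated at 0.27, -0.08 and 0.30. Dicer KO 1 correlated best with Dicer WT 1 (0.23 with Dicer WT 2) and Dicer KO 3 with Dicer WT 3. Dicer KO 2 correlated best with Dicer WT 3 (0.09) and not with its own number. The main fit did not take the numbers as pairs, and these values cannot settle whether they are. The causes of these shifts were not tested. Signal over background is unknown, since the table holds no levels.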
